A study of Mus musculus with 7 samples.

Results

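The axon guidance ligands and receptors measured here are the semaphorins, plexins, neuropilins, Eph receptors, ephrins, Slits, Robo receptors, netrins, Unc5 receptors, Dcc and Neo1. They were found by the start of the gene symbol on the array, among probe sets annotated to a single gene, and each gene is given by its brightest probe set, averaged across the 7 arrays. The letters of that rule reached 59 of the 12393 genes with a single symbol. One of them, Unc50, shares only its letters with the Unc5 receptors and encodes a Golgi membrane protein, so it was set apart (log2 difference -0.08 ± 0.05, limma adjusted p = 0.206) and 58 guidance genes with 97 probe sets remained. The cells were MN9D, a mouse dopaminergic hybrid of neuroblastoma and embryonic midbrain cells. The labels give 3 arrays of MN9D carrying an empty vector and 4 arrays of MN9D made to overexpress the alpha and beta chains of mouse hemoglobin, and name no other treatment or time. They do not say whether the overexpressing cells were 1 clone or a pool, or whether replicates were separate cultures, and the p-values then cover no more than array-to-array spread, possibly technical.

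Guidance ligands steer growing axons by attracting or repelling the growth cone, the moving tip of the axon. Secreted class 3 semaphorins act through neuropilins paired with plexins, membrane-bound semaphorins act on plexins directly, ephrins bind Eph receptors on neighbouring cells, Slits bind Robo receptors, and netrins attract through Dcc and repel through Unc5 receptors. Netrin, Slit, semaphorin and ephrin signals all help to direct the axons of midbrain dopamine neurons, and the same molecules act in blood vessel growth and cell sorting.

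Values are log2 expression values that the authors made with RMA, which equalises the arrays' distributions, and a shift of most transcripts in one direction would be lost. Array medians lay between 8.90 and 8.94, and precision is limited by how few arrays there were. The globin part of the labels was borne out in part. The 3 probe sets annotated to both adult alpha-globin genes were higher in every overexpressing array by 5.16 to 7.15 on the log2 scale. Those annotated to Hba-a2 or Hba-a1 alone differed by -0.03 ± 0.05 and 0.03 ± 0.06 (limma adjusted p = 0.626 and 0.697). The probe set shared by the beta-globin genes differed by 0.12 ± 0.06 (limma adjusted p = 0.149). For Hbb-b2, 1 probe set differed by 0.34 ± 0.07 (limma adjusted p = 0.00558) and a dimmer one by -0.05 ± 0.07 (limma adjusted p = 0.608). The arrays are therefore called globin-labelled. The dopaminergic label was checked on Th, tyrosine hydroxylase, which makes the precursor of dopamine. Its group means were 11.78 with the empty vector and 11.08 in the globin-labelled arrays, a fall of 0.70 ± 0.05 (limma adjusted p = 1.14e-05). Marker counts are to be read beside all 12393 genes, of which 20.6% were higher and 20.1% lower at a limma adjusted p under 0.05 (40.7% either way). Of 9 neuronal markers 4 were higher and 3 lower, with Snap25 highest at means of 12.04 and 12.45. Of 6 catecholaminergic markers 1 was higher and 2 lower. Among markers of other cells, 1 of 5 epithelial markers was higher and 1 lower, and the summed epithelial signal went from 9.71 to 9.86 to between 10.73 and 10.88 (log2), carried by Krt8 (2.77 ± 0.06). Of 5 endothelial markers 1 was higher and 1 lower, with Kdr highest in level (-0.27 ± 0.08), and of 5 oligodendrocyte markers Mbp was lower (-0.70 ± 0.06). The 5 astrocyte, 5 microglial, 6 fibroblast and 4 erythroid markers gave 0 calls in limma, 0 at an unadjusted p under 0.05 and 0 with the trend and robust settings, with Gfap, Csf1r, Dcn and Gata1 highest in level (differences -0.04, 0.10, -0.02 and 0.12). The part of these marker differences in the results below was not tested, and in bulk RNA fewer cells of a type and less RNA per cell cannot be told apart.

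Guidance genes were more often higher than lower in the globin-labelled arrays. Of the 58 genes 23 rose and 6 fell at a limma adjusted p under 0.05, and 29 were not called. That is 39.7% higher and 10.3% lower, where 20.6% of all 12393 genes were higher and 20.1% lower (40.7% either way). The median difference was 0.12 on the log2 scale over the 58 genes and 0.02 over all genes. Differences above 0 were found at 45 of the 58 genes and at 6873 of all 12393. At 29 of the 58 genes the arrays of one group all lay on one side of the other, against 45.7% of all genes, a share near the background. Changes were mostly modest, with a median of 1.32-fold among the called genes, from 1.10-fold for Efna5 to 2.21-fold for Efna3. A size of 1.5-fold was reached by 8 of the 58 genes and by 654 of all 12393. The 8 include Robo1, whose empty vector signals were dim, so that its fold is uncertain. Receptors were called at 15 of 27 genes (13 higher, 2 lower) and ligands at 14 of 31 (10 higher, 4 lower), a difference between the 2 kinds that was not tested. Of the 29 called genes, 22 passed whichever single array was left out. The others were Efna4, Efna5, Efnb3, Epha2, Sema4b, Sema5b and Sema6d, whose highest limma adjusted p without 1 array was 0.0752, 0.130, 0.117, 0.155, 0.0918, 0.0800 and 0.118. With both empty vector array 1 and globin-labelled array 4 removed, which lay at one end of the second principal component, 21 genes were higher and 4 lower. Differences below are globin-labelled minus empty vector on the log2 scale, with limma's standard error after ± (3 empty vector and 4 globin-labelled arrays).

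**Figure D1:**
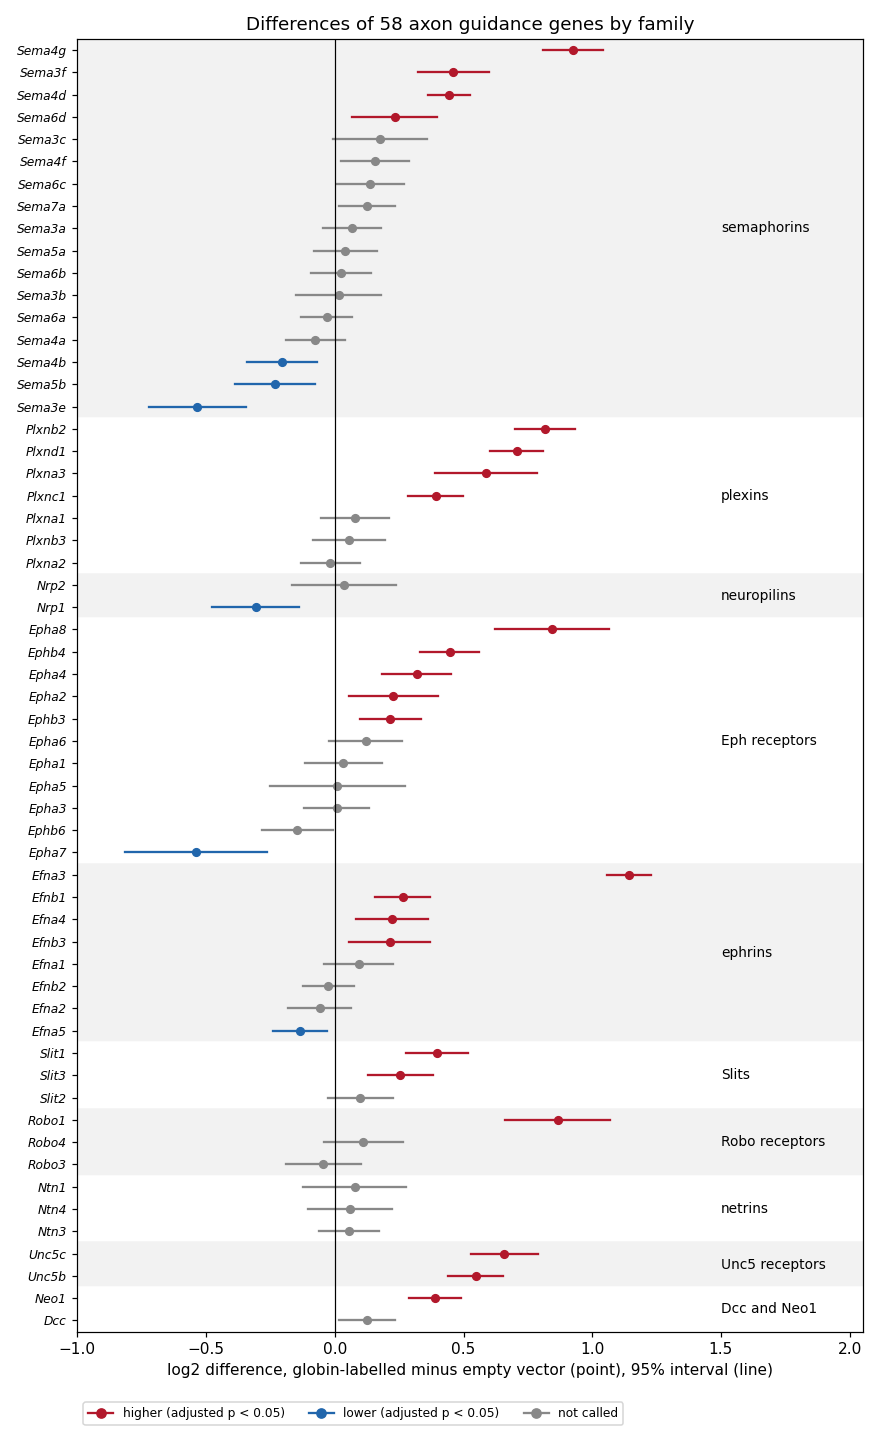
Log2 difference, globin-labelled minus empty vector, for each of the 58 guidance genes (points) with its 95% confidence interval (lines), grouped by family. Red marks the 23 genes that were higher, blue the 6 that were lower and grey the 29 not called, and Efna3 lies farthest to the right at 1.14.

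The largest rises and falls are shown with the sequence before their start site. The 3 largest rises among the 58 genes were those of the ephrin Efna3, the semaphorin Sema4g and the Slit receptor Robo1, the last against empty vector signals below the array's 10th percentile, so that its size and rank are uncertain. The 2 largest falls were those of the Eph receptor Epha7 and the semaphorin Sema3e. For each of the 5 genes, 250 bases before a RefSeq start site are given 5′ to 3′ on the gene's strand (RefSeq, GRCm38.p6), with matches to the GC box GGGCGG, on either strand, in capitals. Efna3 and Epha7 have a second listed start that is not shown.
Efna3, chr3:89322940-89323189, minus strand: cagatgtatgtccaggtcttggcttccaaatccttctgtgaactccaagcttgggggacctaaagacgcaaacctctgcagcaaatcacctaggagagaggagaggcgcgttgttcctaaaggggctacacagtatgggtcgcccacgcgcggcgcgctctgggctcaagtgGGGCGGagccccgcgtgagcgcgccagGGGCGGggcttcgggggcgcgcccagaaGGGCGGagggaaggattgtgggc
Sema4g, chr19:44989094-44989343, plus strand: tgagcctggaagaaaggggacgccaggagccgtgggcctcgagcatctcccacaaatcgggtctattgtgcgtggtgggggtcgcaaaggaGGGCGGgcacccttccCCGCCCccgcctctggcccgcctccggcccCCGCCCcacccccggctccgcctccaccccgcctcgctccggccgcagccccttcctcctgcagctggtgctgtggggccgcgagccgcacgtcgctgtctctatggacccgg
Robo1, chr16:72662899-72663148, plus strand: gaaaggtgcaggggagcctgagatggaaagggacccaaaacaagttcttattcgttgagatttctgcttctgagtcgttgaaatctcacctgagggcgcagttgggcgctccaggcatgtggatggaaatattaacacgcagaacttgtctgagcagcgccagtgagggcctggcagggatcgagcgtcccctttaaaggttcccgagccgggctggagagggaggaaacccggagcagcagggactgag
Epha7, chr4:28812881-28813130, plus strand: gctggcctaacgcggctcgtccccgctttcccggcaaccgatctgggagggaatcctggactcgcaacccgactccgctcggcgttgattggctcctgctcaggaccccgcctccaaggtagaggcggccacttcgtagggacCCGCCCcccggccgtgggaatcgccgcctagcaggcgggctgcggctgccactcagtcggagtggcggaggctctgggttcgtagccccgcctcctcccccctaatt
Sema3e, chr5:14025026-14025275, plus strand: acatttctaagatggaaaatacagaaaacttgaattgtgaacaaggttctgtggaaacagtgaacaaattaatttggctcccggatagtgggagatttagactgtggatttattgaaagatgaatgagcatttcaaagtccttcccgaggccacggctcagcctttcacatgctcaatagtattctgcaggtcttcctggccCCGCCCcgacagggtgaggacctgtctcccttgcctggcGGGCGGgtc
Efna3 and Sema4g, which rose, held 3 GC boxes each and Robo1, which also rose, had no match in this window. Epha7 had 1 and Sema3e 2, so the genes that rose and those that fell were not parted by this match. RefSeq windows were matched for 50 of the 58 genes, and the GC box was present in at least 1 window of 16 of 20 matched genes that rose, 5 of 6 that fell and 19 of 24 not called. It was present in 76.2% of the guidance genes' 63 windows, in 51.3% of the windows of all genes on the array and in 32.7% of all 32851 windows. These shares are per window, so genes with several starts weigh more, and windows of a gene can overlap, as those of Epha7 do. The hypoxia element core ACGTG, which the E box CACGTG contains, was present in 17.5% of the guidance windows against 19.8% of those of genes on the array. A match describes these letters and is not evidence of a bound factor.

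Ephrins, the membrane-anchored ligands of Eph receptors, held the largest change. Of 8 ephrin genes 4 rose and 1 fell. Efna3, which encodes an ephrin tethered by a lipid anchor, was 8.99, 8.96 and 8.95 in the empty vector arrays and 10.08, 10.13, 10.14 and 10.09 in the globin-labelled arrays. Every globin-labelled array lay over 1 log2 unit above every empty vector array. Efna3 rose by 1.14 ± 0.04, or 2.21-fold (limma adjusted p = 7.90e-08). Its neighbours on chromosome 3, Efna1 and Efna4, lie next to it with 0 protein-coding genes between, and differed much less. Efna4, a further A-type ligand, was 7.08, 7.30 and 7.05 against 7.40, 7.35, 7.37 and 7.35, a rise of 0.22 ± 0.06 (limma adjusted p = 0.0190) in which empty vector array 2 came close to the globin-labelled arrays. That call was lost without empty vector array 1 or 3. Efna1 differed by 0.09 ± 0.06 and was not called.

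The transmembrane B-type ephrins gave 2 smaller rises. Efnb1 was 8.84, 8.97 and 8.96 in the empty vector arrays and 9.15, 9.17, 9.18 and 9.25 in the globin-labelled arrays, without overlap. It rose by 0.26 ± 0.05 (limma adjusted p = 0.00170). Efnb3 was 7.47, 7.45 and 7.22 against 7.53, 7.70, 7.53 and 7.62, and empty vector array 3 was the low one. Its rise of 0.21 ± 0.07 (limma adjusted p = 0.0365) was lost without globin-labelled array 2 or 4, or without empty vector array 3, where the difference was 0.13. Efna5, a repellent ligand in axon mapping, fell by 0.13 ± 0.05 (limma adjusted p = 0.0436), a call that was lost when any array other than empty vector array 3 was left out. The Efna5 difference was -0.08 with both empty vector array 1 and globin-labelled array 4 removed. Efna2 and Efnb2 were not called on their brightest probe sets, at -0.06 ± 0.05 and -0.03 ± 0.04.

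Eph receptors, the tyrosine kinases that bind ephrins, rose at 5 of 11 genes and fell at 1. That is 45.5% higher and 9.09% lower, against 20.6% and 20.1% of all genes. Epha8, an A-type receptor of the developing midbrain, was 7.14, 6.88 and 7.36 in the empty vector arrays and 8.05, 7.87, 8.01 and 7.95 in the globin-labelled arrays. The empty vector arrays spread more widely than the others, and the groups did not overlap. Epha8 rose by 0.84 ± 0.10, or 1.79-fold (limma adjusted p = 0.000141). Ephb4, a receptor for ephrin-B2 known from veins, went from 8.62, 8.68 and 8.82 to 9.14, 9.15, 9.16 and 9.17, with the globin-labelled arrays almost level. That rise was 0.45 ± 0.05 (limma adjusted p = 0.000126). Epha4, which binds both ephrin classes, went from 6.44, 6.27 and 6.29 to 6.73, 6.55, 6.69 and 6.63, a rise of 0.32 ± 0.06 (limma adjusted p = 0.00220).

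Epha7 moved the other way. It was 8.96, 9.01 and 8.67 in the empty vector arrays and 8.19, 8.11, 8.53 and 8.53 in the globin-labelled arrays, where arrays 1 and 2 were lowest and empty vector array 3 came nearest to the other group. Epha7 fell by 0.54 ± 0.12 (limma adjusted p = 0.00665). Smaller rises were called for Ephb3 (0.22 ± 0.05) and Epha2 (0.23 ± 0.08), of which Epha2 was lost without empty vector array 1 or 2 or globin-labelled array 2 or 4. Epha1, Epha3, Epha5 and Epha6 differed by 0.01 to 0.12, and Ephb6, which lacks kinase activity, by -0.15 ± 0.06. Leaving out empty vector array 3, Ephb6 was called at a limma adjusted p of 0.0423. It lay below the array's 10th percentile, 5.36 to 5.44, on all 7 arrays, as Epha6 did on 6 and Epha5 on 5, so their differences are those of dim signal.

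Plexins, the signalling receptors for semaphorins, rose at 4 of 7 genes, and the remaining 3 were not called. The rises are 57.1% of a small family, where 20.6% of all genes were higher. Plxnb2, a receptor for class 4 semaphorins, was 10.54, 10.73 and 10.64 in the empty vector arrays and 11.50, 11.44, 11.41 and 11.47 in the globin-labelled arrays. The groups lay well apart. Plxnb2 rose by 0.82 ± 0.05, or 1.76-fold (limma adjusted p = 4.06e-06). Plxnd1, which binds Sema3e without a neuropilin, went from 7.98, 8.08 and 7.93 to 8.69, 8.73, 8.72 and 8.68. Its rise was 0.71 ± 0.05, or 1.63-fold (limma adjusted p = 4.25e-06), again without overlap.

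Plxna3, which pairs with neuropilins to read class 3 semaphorins, was 10.52, 10.73 and 10.48 against 11.33, 11.26, 11.05 and 11.03, and rose by 0.59 ± 0.09 (limma adjusted p = 0.000640). Globin-labelled arrays 1 and 2 were the higher pair. Plxnc1, the receptor for Sema7a, went from 11.42, 11.35 and 11.27 to 11.73, 11.70, 11.74 and 11.79, a rise of 0.39 ± 0.05 (limma adjusted p = 0.000177). Averaged over all 4 of its probe sets the difference was 0.13 and was not called (limma adjusted p = 0.0523). Plxna1, Plxna2 and Plxnb3 differed by 0.08 ± 0.06, -0.02 ± 0.05 and 0.06 ± 0.06, with 95% intervals that stayed between -0.13 and 0.21.

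Of the 2 neuropilins, the ligand-binding co-receptors of class 3 semaphorins, 1 fell, where 20.1% of all genes were lower. Nrp1 was 9.12, 8.87 and 8.98 in the empty vector arrays and 8.56, 8.62, 8.74 and 8.81 in the globin-labelled arrays, with a narrow gap between the groups. Nrp1 fell by 0.31 ± 0.08 (limma adjusted p = 0.00975). Nrp2 differed by 0.04 ± 0.09 and was not called, and its 95% interval ran from -0.17 to 0.24. Plxna3, a plexin that pairs with neuropilins, thus rose where Nrp1 fell, while Plxna1, Plxna2 and Nrp2 were not called.

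Semaphorins moved both ways, with 4 of 17 genes higher (23.5%) and 3 lower (17.6%), shares near those of all genes (20.6% and 20.1%). Sema4g, a membrane-bound class 4 semaphorin, was 8.08, 7.98 and 8.02 in the empty vector arrays and 8.87, 8.91, 8.99 and 9.04 in the globin-labelled arrays. The groups were clearly parted. Sema4g rose by 0.92 ± 0.05, or 1.90-fold (limma adjusted p = 2.03e-06). Sema4d, a ligand of B-type plexins, went from 11.10, 11.14 and 11.12 to 11.58, 11.57, 11.57 and 11.54, with very little spread in either group. Sema4d rose by 0.44 ± 0.04 (limma adjusted p = 1.76e-05), and by 0.28 when its probe sets were averaged (limma adjusted p = 0.00190).

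The secreted class 3 semaphorins divided. Sema3f, a repellent that acts through Nrp2, was 8.90, 9.03 and 9.0025 in the empty vector arrays and 9.58, 9.39, 9.43 and 9.34 in the globin-labelled arrays, and rose by 0.46 ± 0.06 (limma adjusted p = 0.000313). Sema3e, the ligand of Plxnd1, was 8.33, 8.16 and 7.94 against 7.56, 7.54, 7.64 and 7.70, and fell by 0.53 ± 0.08 (limma adjusted p = 0.000845). Sema3e was thus lower where its receptor gene Plxnd1 was higher, and neither gene's groups overlapped. Sema3a, Sema3b and Sema3c, at 0.07 ± 0.05, 0.01 ± 0.07 and 0.18 ± 0.08, were not called.

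Smaller calls were made for Sema6d (0.23 ± 0.07), Sema4b (-0.20 ± 0.06) and Sema5b (-0.23 ± 0.07). Each was lost without at least 1 array, for Sema6d empty vector arrays 2 and 3 and globin-labelled arrays 1 and 2, for Sema4b empty vector arrays 2 and 3 and globin-labelled arrays 2 and 4, and for Sema5b empty vector arrays 1 and 3. Sema6d was also the only called gene of the 58 whose groups overlapped. The remaining 7 semaphorins, Sema4a, Sema4f, Sema5a, Sema6a, Sema6b, Sema6c and Sema7a, lay between -0.08 and 0.16. Of these, Sema4a was called without empty vector array 1 (-0.13, limma adjusted p = 0.0380), as were Sema4f (0.19, limma adjusted p = 0.0493) and Sema7a (0.17, limma adjusted p = 0.0176). Sema4f was also called without globin-labelled array 3 (limma adjusted p = 0.0477). Sema5a lay below the 10th percentile on all 7 arrays.

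The Slit and Robo genes, which encode secreted repellents and their receptors, rose in part. Of 3 Slits 2 rose and of 3 Robo receptors 1 did, where 20.6% of all genes were higher. Slit1 was 8.72, 8.71 and 8.73 in the empty vector arrays and 9.07, 9.13, 9.24 and 9.02 in the globin-labelled arrays, and rose by 0.40 ± 0.05 (limma adjusted p = 0.000329). Slit3 went from 10.80, 10.98 and 10.82 to 11.21, 11.10, 11.08 and 11.10, a rise of 0.25 ± 0.06 (limma adjusted p = 0.00547) in which empty vector array 2 lay highest of its group. Slit2 differed by 0.10 ± 0.06 and was not called. Robo1, a Slit receptor of growth cones, was 5.22, 5.26 and 5.21 in the empty vector arrays and 6.22, 5.85, 6.26 and 6.05 in the globin-labelled arrays. All 3 empty vector arrays lay below the array's 10th percentile, so the rise of 0.87 ± 0.09 (limma adjusted p = 7.38e-05) starts from dim signal and no fold is read from it. Robo3, a receptor of axons that cross the midline, and Robo4, known from endothelium, were not called (-0.04 ± 0.06 and 0.11 ± 0.07). Robo3 lay below the array's 10th percentile on 2 arrays and close to it on the others, so its difference is that of dim signal.

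Of the 4 genes of the Unc5, Dcc and Neo1 families, which encode netrin receptors, 3 rose, where 20.6% of all genes were higher. The netrins were not called on their brightest probe sets. Unc5c, a receptor for repulsion by netrin, was 10.23, 10.17 and 10.06 in the empty vector arrays and 10.76, 10.73, 10.89 and 10.87 in the globin-labelled arrays. It rose by 0.66 ± 0.06, or 1.58-fold (limma adjusted p = 2.60e-05). Unc5b went from 11.20, 11.26 and 11.31 to 11.89, 11.75, 11.80 and 11.78, a rise of 0.55 ± 0.05 (limma adjusted p = 2.60e-05), and both receptors were free of overlap. Neo1, neogenin, which binds netrins and repulsive guidance molecules, was 10.97, 10.96 and 10.90 against 11.39, 11.25, 11.32 and 11.37. Neo1 rose by 0.39 ± 0.05 (limma adjusted p = 0.000141).

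Dcc, the attractive netrin receptor, differed by 0.12 ± 0.05 and was not called (limma adjusted p = 0.0706), though leaving out empty vector array 3 gave a call (0.17, limma adjusted p = 0.0302). The groups just failed to overlap, at a lowest globin-labelled value of 7.9402 and a highest empty vector value of 7.9399. On their brightest probe sets limma called 0 of the 3 netrins, and 0 had an unadjusted p under 0.05. A dimmer probe set of Ntn1 was called and is given below. Ntn4, the brightest by mean level, was 6.81, 6.68 and 6.82 in the empty vector arrays and 6.85, 6.95, 6.64 and 6.87 in the globin-labelled arrays, with full overlap and a difference of 0.06 ± 0.07. Ntn1 and Ntn3 differed by 0.08 ± 0.09 and 0.06 ± 0.05. The 95% interval of Ntn1 ran from -0.12 to 0.28.

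**Figure D2:**
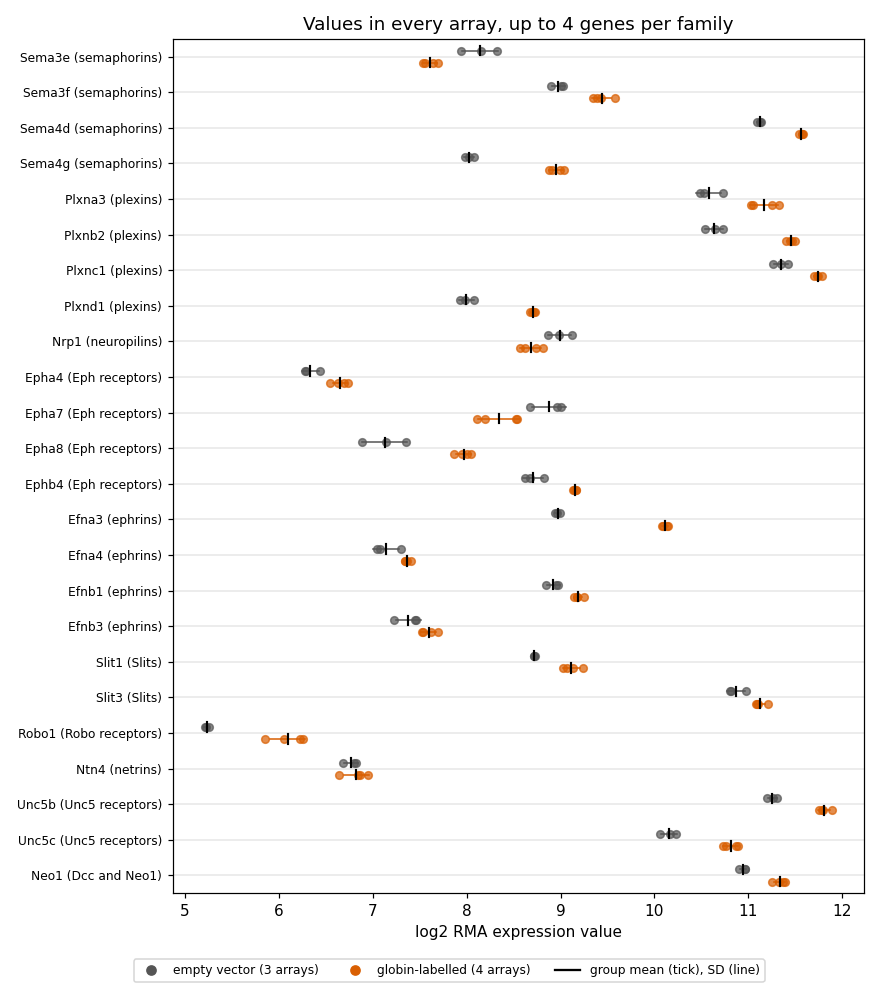
Log2 RMA value in every array (points) for up to 4 called genes of each family, with Ntn4 for the netrins, the group mean (tick) and SD (line), 3 empty vector arrays in grey and 4 globin-labelled arrays in orange. The groups are apart for every gene shown but Ntn4, and Robo1 starts at 5.21 to 5.26.

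The remaining probe sets of these genes were looked at as well. They were read from the same RNA on the same arrays, so their agreement is not independent support. How often probe sets agree over all genes was not counted. Of the 58 genes 25 had more than 1 probe set, and 11 of these were called on the brightest. In 7 of the 11 every other probe set was called in the same direction, namely Efnb1, Epha4, Epha7, Plxna3, Sema3e, Sema3f and Unc5c. The dimmest probe set of Epha7 lay below the array's 10th percentile on 4 arrays, so its fall ends in dim signal. In Nrp1, Plxnc1 and Sema4d a part was, and in Sema4b the other probe set was not called (-0.16 ± 0.08). In 0 of the 11 was another probe set called in the opposite direction. For Plxnc1 the 4 probe sets gave 0.39, 0.24, 0.05 and -0.14, of which the first pair was called. Of the 14 genes not called on the brightest probe set, 3 had a call on a dimmer one. Efnb2, a ligand of Ephb4, was lower on 2 of its 4 probe sets (-0.36 ± 0.04 and -0.18 ± 0.05), and its mean over all 4 was called (-0.17, limma adjusted p = 0.00445). Ntn1 was higher on its dimmer probe set by 0.21 ± 0.05 (limma adjusted p = 0.00856), and Sema6c on 1 of 3 by 0.16 ± 0.06. The other 18 called genes, Efna3, Plxnb2 and Robo1 among them, rest on 1 probe set each.

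**Figure D3:**
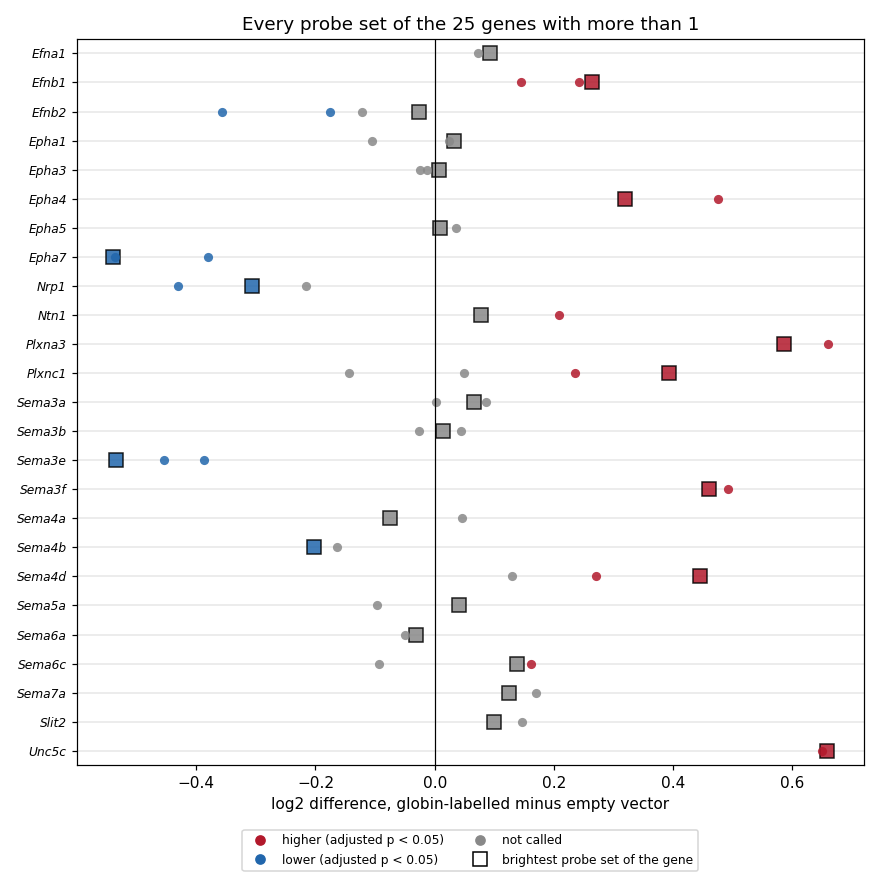
Log2 difference of every probe set of the 25 guidance genes with more than 1, with the brightest as an outlined square and the others as circles, red for higher, blue for lower and grey for not called. The 3 probe sets of Epha7 lie together at the left and both of Unc5c at the right, while the 4 of Plxnc1 span -0.14 to 0.39.

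The position of the genes was set beside their changes, with the median difference of up to 10 measured genes on either side in RefSeq gene order. Over all genes that median lay between -0.13 (5th percentile) and 0.15 (95th percentile), and 5 of the 58 guidance genes (8.62%) fell outside, where 10% of all genes do by construction. The guidance genes were therefore at the background in this measure, and the 5 are given as a description. Around Epha7, on chromosome 4, the neighbours' median was -0.31 and 12 of 20 neighbours were lower, the same direction as Epha7 itself. Around Plxnb2, on chromosome 15, the median was 0.21 with 13 of 20 higher, and around Sema4g, on chromosome 19, it was 0.20 with 11 of 20 higher. Plxna3, on chromosome X, rose although its neighbours' median was -0.15, with 10 of 20 lower. Efna2, on chromosome 10, was not called although 12 of its 20 neighbours were higher. Efna3, Robo1, Epha8 and Plxnd1 had neighbour medians of 0.07, -0.01, 0.03 and 0.01. The part of such stretches in the changes of Epha7, Plxnb2 and Sema4g was not tested.

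**Figure D4:**
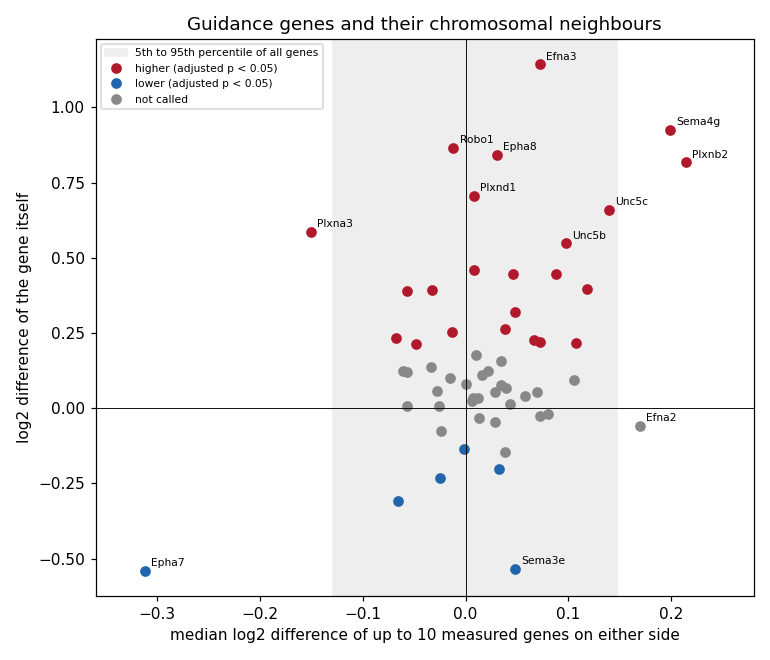
Log2 difference of each guidance gene (vertical axis) against the median log2 difference of up to 10 measured genes on either side of it (horizontal axis), with the 5th to 95th percentile of that median over all genes shaded. Epha7, Plxna3, Efna2, Sema4g and Plxnb2 lie outside the shading, and Efna3 lies inside it at 0.07.

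Further partners and the signalling machinery behind these receptors moved both ways. Of 80 listed genes 67 were measured, of which 14 were higher (20.9%, against 20.6% of all genes) and 17 lower (25.4%, against 20.1%), with a median difference of -0.00. The rises were led by Grb10, an adaptor of tyrosine kinase receptors, at 8.14, 8.09 and 7.96 against 9.46, 9.52, 9.71 and 9.60, or 1.51 ± 0.07 (limma adjusted p = 4.80e-07). Averaged over all of its probe sets the Grb10 difference was 0.75 (limma adjusted p = 2.17e-06). Dpysl5 and Dpysl3, collapsin response mediators that act downstream of semaphorins, rose by 0.53 ± 0.05 and 0.30 ± 0.04, whereas their relative Crmp1 fell by 0.38 ± 0.04 (limma adjusted p = 4.50e-05, 0.000154 and 5.90e-05). Ppp3ca, a calcineurin subunit, rose by 0.48 ± 0.05, Rras, a small GTPase that plexins inactivate, by 0.42 ± 0.05 and Tiam1, a Rac activator that binds Eph receptors and ephrins, by 0.48 ± 0.06. For Tiam1 the mean over its probe sets gave 0.24 (limma adjusted p = 0.00128).

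Kinases, actin regulators and a GTPase activator were among the falls of the signalling list. Gsk3b, which phosphorylates collapsin response mediators, fell by 0.49 ± 0.05 from 11.62, 11.65 and 11.62 to 11.24, 11.12, 11.17 and 11.02 (limma adjusted p = 0.000104). Src fell by 0.34 ± 0.06 and Pak2, a Rac effector, by 0.20 ± 0.04. Ablim1, an actin-binding protein, and Trio, a Rac activator of the netrin pathway, fell by 0.43 ± 0.06 and 0.31 ± 0.05. The GTPase genes Rac1, Cdc42 and Rhoa, through which growth cone actin is steered, were not called, at 0.04 ± 0.04, -0.13 ± 0.05 and -0.13 ± 0.05.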

How the data were processed

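Total RNA of 7 MN9D samples was hybridised to mouse 430A 2.0 arrays, per the labels. The deposited values are on a log2 scale. RMA is named for them in the submitters' processing notes, while its software is not given in the sources used here. This method compresses large folds and fixes each array's distribution. The values were used as deposited, with no filter, and arrays carry no read depth.

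The 64 control probe sets among 22690 were left out. Of the 22626 tested, 20380 had 1 gene symbol in the platform annotation, 691 several and 1555 none, and only the first were named. Groups were compared with limma 3.58.1 (R 4.3.3; lmFit, eBayes, group as the only term, 5 residual degrees of freedom), with two-sided tests adjusted by Benjamini-Hochberg over the 22626 probe sets, and a call is an adjusted p under 0.05. The fit was tested on simulated data, where it called 60% of 1.2-fold changes and 94% of 1.5-fold changes, with 14 false calls among 22626 probe sets. Small changes can therefore go uncalled. All 58 guidance genes were matched to RefSeq (GRCm38.p6) by Entrez identifier.

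The members and lists were chosen with earlier results of these data known. The pathway list holds 80 textbook partners and effectors. Values in every array are given for up to 4 called genes per family by size of difference, or the brightest gene where no gene was called. From the pathway list up to 6 called genes in each direction by smallest p were named, and from each marker list the brightest gene. Rac1, Cdc42 and Rhoa, and the remaining guidance genes given by their difference alone, fall outside that rule. Alternatives were 2 array scalings, eBayes with trend and robust, a replicate block, leaving out the dimmest probe sets, 2 other choices of probe set, each array left out in turn and, added after the data were seen, 2 arrays left out together.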

Additional observations from a re-analysis of the deposited data

Results flagged for a closer look

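Of 42 genes whose 4 globin-labelled arrays were tested for an outlying array, 2 had one. Chance alone flags about 1 group in 20, so this number is no more than chance gives. Slit3 was 11.21 in globin-labelled array 1 and 11.08 to 11.10 in the others, and its rise was called without that array as well. Dpysl5, of the signalling list, was 9.54 in globin-labelled array 1 and 9.38 to 9.40 in the others.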

How the results depend on the processing

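Under all alternatives run, no called difference of a guidance gene or named signalling gene changed sign. The counts of 23 higher and 6 lower guidance genes lay between 20 and 24 and between 4 and 5 with 1 array left out, and those of the signalling list between 10 and 14 higher and between 13 and 16 lower. Both array scalings kept 28 of the 29 calls, losing Efna5 or Efnb3, the trend and robust settings lost Efna5, and the mean over a gene's probe sets lost Plxnc1 and gained Efnb2 and Slit2. Without the dimmest probe sets 42 of the 58 genes remained and Sema4f and Sema7a were gained. Same-numbered arrays deviated in opposite directions (correlations of deviations -0.36, -0.30 and -0.14), which gives no sign that the numbers pair the samples. Differently numbered arrays gave -0.23 to 0.28, and with so few arrays this check cannot exclude a pairing or a batch. With the replicate block, which also drops globin-labelled array 4, 3 guidance genes were lower and 19 higher, and 9 signalling genes were higher and 8 lower. That fit has fewer arrays and fewer residual degrees of freedom.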

Other observations

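RMA values repeated to all deposited digits across arrays. At 8211 of the 22626 probe sets (36.3%) at least 2 of the 7 arrays held an equal value, and at 3391 at least 3 did. Among the 58 guidance genes 25 had such a pair and 11 had at least 3 equal arrays, Sema3a, Sema6b and Plxna1 among them. Limma called 0 of those 11 genes and 29 of the 3391 probe sets. For Sema3a and Sema6b the shared value lay in arrays of both groups, which makes the groups touch. For Plxna1 it lay in globin-labelled arrays only. Why so few of these were called was not tested.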
